A study of Mus musculus with 19 samples.

Results

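The early change of 5-hydroxymethylcytosine (5hmC) was examined in knockout (KO) mouse pre-iPSCs by setting day 2 (D2) of conversion against day 0 (D0) within each of 2 KO lines, KO1 and KO2. The 4 libraries are KO1 D0, KO2 D0, KO1 D2 and KO2 D2, out of 18 libraries with a peak list. They hold 399358 of the authors' peaks on chromosomes 1 to 19, out of 1601520 peaks on every chromosome in the whole series. A locus was followed up where both lines showed it. The cells were derived from MEFs (mouse embryonic fibroblasts), and every one of these libraries, D0 included, is labelled with ascorbic acid (AA) and 2i, which stands for the GSK3 inhibitor CHIR-99021 with the MEK inhibitor PD-0325901. The labels give no genotype for the KO lines beyond the titles, name no deleted gene, and do not say whether a line is a single clone. The run names in the deposited lists read CrisprKO_All for KO1 and CKO-H for KO2, so KO1 and KO2 are treated as a pair of lines of a single arm only because their titles number them so. Wild-type (WT) cells of the same kind, with 3 libraries per day (A, B and C), KO libraries of day 10 (D10) and mouse embryonic stem cell (mESC, V6.5) libraries at 0, 12 and 72 hours served as read-outs. They took no part in choosing regions. For the windows of 10 kb tested below, WT and D10 libraries entered the filter and the fit. Their values at called windows are therefore not an independent read-out. No label tells whether lines or replicates were grown apart; p-values then speak only of the spread between these libraries, which may be technical.

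5hmC arises when TET dioxygenases oxidise 5-methylcytosine, and it is found mainly in the bodies and distal regulatory elements of genes that a cell uses, where it can be an intermediate on the way to unmethylated cytosine. Ascorbic acid supports the iron-dependent TET enzymes. Pre-iPSCs are partly reprogrammed cells that have lost much of the fibroblast state without reaching the stem cell state, and ascorbic acid with 2i is used to move them on. In this assay a modified glucose is placed on 5hmC, coupled to biotin and captured, so a peak marks DNA fragments enriched for 5hmC over the input. It does not measure the share of cytosines that carry the mark, and less 5hmC per cell cannot be told apart from fewer cells that carry it. All coordinates are on mm9. Loci are given by position and no gene is named, because an annotation of mm9 was not used here.

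The 4 lists differed in length and in what stood behind them. Depth, recovered from the step size of the authors' fold values and given relative to the background, was 1.23 in KO1 D0, 1.15 in KO2 D0, 1.67 in KO1 D2 and 1.23 in KO2 D2. KO1 therefore had its deepest library at D2, while the depths of the KO2 pair lay close together. KO1 also stood apart on chromosome 5, which held 10.4% of its strongest peaks at D0 and 12.8% at D2, against 5.43% and 5.01% in KO2. Among the WT libraries of D0 and D2 that share was 5.76 to 6.88%. The part that depth or the chromosome 5 excess plays in the results below was not tested, but counts are given with lists of equal length and without chromosome 5. To equalise the lists, the 54997 peaks with the highest authors' -log10 p in each library were kept, the length of the shortest pre-iPSC list, and these are called the strongest peaks. The lowest -log10 p kept was 7.61 in KO1 D0 and 12.9 in KO1 D2, and 11.1 in KO2 D0 and 9.90 in KO2 D2. A peak between the cuts of a line could count on 1 day and not on the other at the same -log10 p. WT D0 C stood apart: 21.8% of its peaks had a -log10 p on the steps of a single background, against 54.3 to 70.5% in the other 14 pre-iPSC lists, and its depth is not relied on.

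Both KO lines had more 5hmC peaks at D2 than at D0. KO1 held 60832 peaks at D0 and 138007 at D2. KO2 went from 86598 to 113921. These peaks covered 30.7 Mb at D0 and 64.2 Mb at D2 in KO1, and 35.6 Mb and 43.7 Mb in KO2. The D2 libraries were the longer lists in either line and did not overlap the D0 libraries in number. Log2 peak number was 0.79 higher at D2 on average, by 1.18 in KO1 and by 0.40 in KO2 (two-sided exact permutation, 2 libraries against 2, p = 0.333, the smallest this design allows). The median peak width was 425 bp at D0 and 376 bp at D2 in KO1, and 348 bp and 321 bp in KO2. The share of peaks of at least 1 kb was 5.02% at D0 and 4.84% at D2 in KO1, and 2.24% and 1.76% in KO2.

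Positions moved further between days than between lines. With the strongest peaks, D0 and D2 shared 19.7% of the bp covered in either list in KO1 and 19.6% in KO2. KO1 and KO2 shared 28.9% at D0 and 27.7% at D2. Lists of different line and different day shared least, 15.7% (KO1 D0 with KO2 D2) and 15.2% (KO2 D0 with KO1 D2). Each KO D2 list lay nearer to the WT lists of its own day than to WT D0: KO1 D2 shared on average 41.0% with WT D2 and 16.5% with WT D0, and KO2 D2 shared 29.8% and 14.9%. At D0 the order was the other way round, with 35.0% for KO1 D0 and WT D0 against 19.5% with WT D2, and 28.1% against 16.8% for KO2 D0.

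Merging the 4 lists, with 1 bp of overlap, gave 214482 regions, which were sorted by the libraries that held a peak. A region was called gained in both lines where KO1 D2 and KO2 D2 had a peak and neither D0 list had one, and lost in both lines in the opposite case. By this rule 28837 regions were gained (13.4% of all regions) and 8418 were lost (3.92%), while 20622 had a peak in all 4 lists. Gained regions covered 14.8 Mb and lost regions 4.26 Mb, with like median lengths of 445 and 460 bp. Regions in all 4 lists were longer, with a median of 868 bp, and 39.1% of them reached 1 kb. These patterns are a description by the rule and carry no test. With the strongest peaks alone, 8912 regions were gained (7.08% of 125884) and 10542 were lost (8.37%). Equal lists force gains and losses within a line to nearly the same number (32492 and 32307 in KO1, 33709 and 33828 in KO2), so these counts do not tell more 5hmC from longer lists, and the balance of gains to losses is not read here. Without chromosome 5 the counts were 27450 and 7940 with all peaks, and 8393 and 9976 with the strongest peaks.

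**Figure D1:**
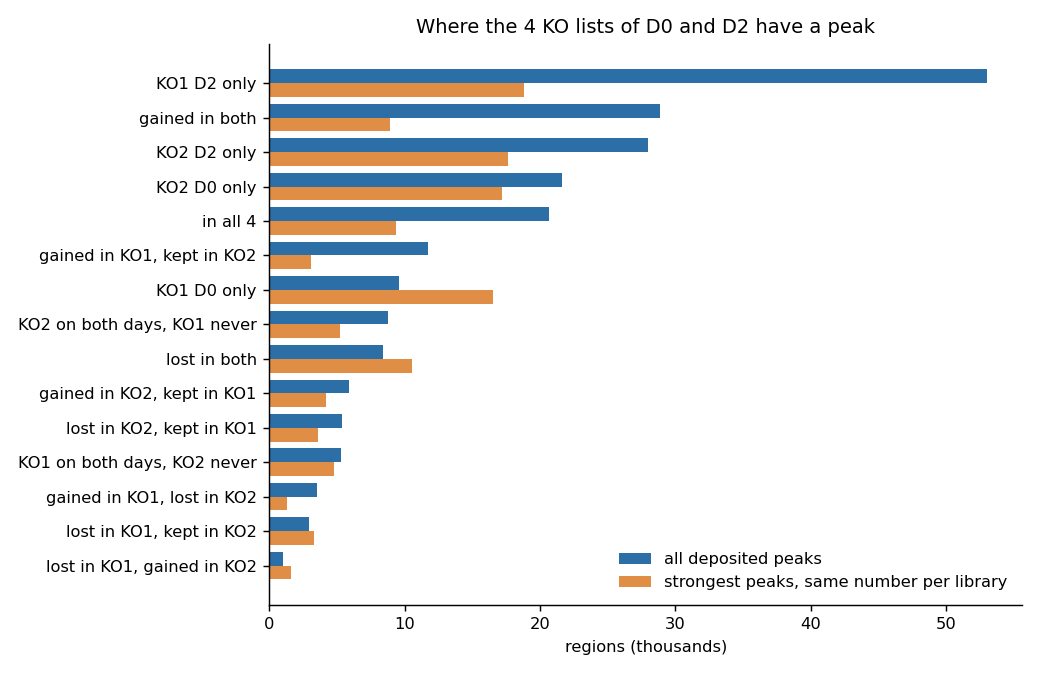
Number of merged regions (horizontal axis, in units of 1000) with each pattern of peaks over KO1 D0, KO2 D0, KO1 D2 and KO2 D2, with all deposited peaks (blue) and with the 54997 strongest peaks of each library (orange). The bar for regions gained in both lines falls from 28837 to 8912 when lists are made equally long, and that for regions lost in both lines goes from 8418 to 10542.

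Most change was seen in a single line. KO1 D2 alone held 52990 regions and KO2 D2 alone 27973, next to the 28837 that both D2 lists shared without D0. At D0 the lists of KO1 and KO2 alone held 9567 and 21604 regions. Opposite change was rarer: 3535 regions were gained in KO1 and lost in KO2, and 984 were lost in KO1 and gained in KO2. With lists of equal length the counts were 1310 and 1568. Loci that the lines share were also the stronger ones within each list: the median gained region stood at percentile 52.9 of the KO1 D2 list and 45.8 of the KO2 D2 list by the authors' -log10 p, against 35.2 and 33.4 for regions of KO1 D2 alone and KO2 D2 alone. Regions in all 4 lists stood higher still at D2, at percentiles 80.3 and 75.3. Lost regions stood at 51.4 in KO1 D0 and 54.2 in KO2 D0.

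The longest regions gained in both lines show the pattern in single loci. At chr18:73848924-73853408 (4485 bp) no D0 library of either arm had a peak. At D2 peaks covered all 4485 bp in KO1 and 2168 bp in KO2, and 4429, 4485 and 4485 bp in WT A, B and C. The KO lines kept 4019 and 3863 bp of it at D10, where none of the 3 WT libraries had a peak. In this locus the KO and WT lists were thus alike at D0 and D2, and differed at D10. At chr8:46035661-46038460 (2800 bp) both lines again went from no peak at D0 to 2755 bp (KO1) and 2279 bp (KO2) at D2. Here WT peaks covered 1734 to 1927 bp at D2 and 2728 to 2800 bp at D10 in the 3 libraries, and all 3 mESC lists had a peak as well. This is the gained locus among the 10 longest with a peak in every mESC list.

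The other long gains ranged from 2439 to 3127 bp and included loci where a line contributed little. At chr5:114330315-114333441, on the chromosome where KO1 is in excess, KO1 D2 covered 3127 bp and KO2 D2 812 bp. At chr1:137150404-137153073 the peaks covered 2670 bp in KO1 and 278 bp in KO2. At chr3:121150468-121153133 the lines were closer, with 2666 and 1704 bp. Extent differed between the lines at these loci, where presence in both is set by the rule. KO2 had the wider D2 peak in a single one of these 10 loci, chr10:5263166-5265735, with 2513 bp against 1612 bp in KO1. That locus also had D0 peaks of 2515 and 2570 bp in WT A and B, and none in WT C. In each of the 10 loci all 3 WT D2 libraries had a peak, while WT D0 libraries had a peak in 2 of 3 at 6 loci and in none at the other 4.

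The longest regions lost in both lines were shorter, from 1459 to 2135 bp. At chr11:25256245-25258379 peaks at D0 covered 1988 bp in KO1 and 911 bp in KO2, and no KO D2 list had a peak. WT libraries went from 1412 to 2016 bp at D0 to between 275 and 298 bp at D2 in the same place, so a small peak was still called there. At chr3:95456410-95458406 the KO peaks covered 1527 and 1892 bp at D0, and WT peaks 357 to 1971 bp, and none of the 5 D2 libraries of either arm had a peak. Loss was less uniform across WT at chr19:5837514-5838978, where KO1 D0 covered 1465 bp and KO2 D0 479 bp. There all 3 WT D2 libraries still had peaks of 1102 to 1465 bp, and KO1 covered 1465 bp once more at D10 while KO2 had no D10 peak. Of the 10 longest losses, 8 had a KO1 D10 peak and none had a KO2 D10 peak.

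Loci that moved in opposite directions in the lines were short as well. At chr17:5195332-5196930 the KO2 peak covered 1599 bp at D0 and was absent at D2, while KO1 had no peak at D0 and 396 bp at D2. At chr18:35813601-35815255 KO1 had 307 bp at D0 and none at D2, while KO2 had none at D0 and 1648 bp at D2. In WT that locus had D0 peaks of 438 bp (A) and 797 bp (B) and none in C, and D2 peaks of 748 to 806 bp.

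A change called in a single line was next read in the other line, whose libraries took no part in the call. Of 98795 regions gained in KO1, KO2 had a peak in 16.2% at D0 (95% Wilson interval 16.0 to 16.4%) and in 42.5% at D2 (42.2 to 42.8%). Of 68155 regions gained in KO2, KO1 had a peak in 11.9% at D0 (11.7 to 12.2%) and in 57.2% at D2 (56.8 to 57.5%). Gains called in a line were therefore more often occupied at D2 than at D0 in the other. Losses gave the reverse. KO2 had a peak in 52.8% at D0 and 17.9% at D2 of the 22479 regions lost in KO1, and KO1 in 38.1% and 24.7% of the 41374 regions lost in KO2. For comparison, regions that a line kept on both days were occupied in the other line at 69.7% and 70.9% (kept in KO1, read in KO2) and at 52.8% and 73.1% (kept in KO2, read in KO1). The KO1 D2 list, in which the last share was read, is the longest of the 4. With lists of equal length, gained regions went from 14.1% to 37.7% (read in KO2) and from 18.5% to 42.7% (read in KO1), lost regions from 43.8% to 15.1% and from 44.7% to 15.9%, and kept regions stayed between 58.9% and 61.6%. Intervals cover counting error only, and regions of a library are not independent replicates.

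WT libraries, which also took no part in the choice, had peaks in more of the gained regions at D2 than at D0 or D10. Peaks were found in 17.9, 27.6 and 13.3% of the gained regions in WT D0 A, B and C, in 83.3, 78.8 and 67.7% in WT D2, and in 36.4, 32.4 and 23.1% in WT D10. All 3 D2 libraries lay above all 3 D0 libraries and all 3 D10 libraries. Over all 214482 regions the shares were 33.3, 42.1 and 23.7% in WT D0 and 55.1, 49.8 and 41.2% in WT D2, so gained regions were below that level at D0 and above it at D2 in every WT library. The mean share was 19.6 ± 7.30% in WT D0, 76.6 ± 8.01% in WT D2 and 30.6 ± 6.81% in WT D10 (SD, n = 3 each), a difference of 57.0 points from D0 to D2 (two-sided exact permutation, 3 against 3, p = 0.1, the smallest this design allows). The difference was 53.9 points without WT D0 C. With the strongest peaks the means were 16.0 ± 2.61% and 68.1 ± 1.47% (SD, n = 3 each).

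Lost regions showed the opposite in WT, above the shares over all regions at D0 and below them at D2. WT D0 A, B and C had a peak in 80.5, 89.8 and 53.7% of them, WT D2 in 22.2, 18.3 and 13.4%, and WT D10 in 2.40, 1.95 and 1.44%. The 3 days did not overlap, and C was the lowest library on each day. The difference from D0 to D2 was -56.7 points (two-sided exact permutation, 3 against 3, p = 0.1, the smallest possible) and -67.2 points without WT D0 C. Regions with a peak in all 4 KO lists were occupied in 85.4 ± 11.3% of cases in WT D0 and 93.3 ± 2.42% in WT D2 (SD, n = 3 each, two-sided exact permutation p = 0.3), and in 32.5 ± 7.91% in WT D10 (SD, n = 3). A single library's share has a 95% Wilson interval of at most 1.06 points on either side, for counting error only.

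Single regions gave the same picture in counts. Of the 28837 gained regions, 9158 (31.8%) had no peak in any WT D0 library and a peak in every WT D2 library, and 17 had the reverse. Over all 214482 regions the first pattern made up 10.6%. Of the 8418 lost regions, 2349 (27.9%) had a peak in every WT D0 library and in no WT D2 library, against 2.90% of all regions, and 7 had the reverse. Regions with no peak in any of the 6 WT libraries of D0 and D2 made up 6.44% of the gained, 5.55% of the lost and 22.9% of all regions. Regions that KO1 D2 or KO2 D2 held alone were less often seen in WT: 27.8% and 55.1% of them had no WT peak on either day.

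**Figure D2:**
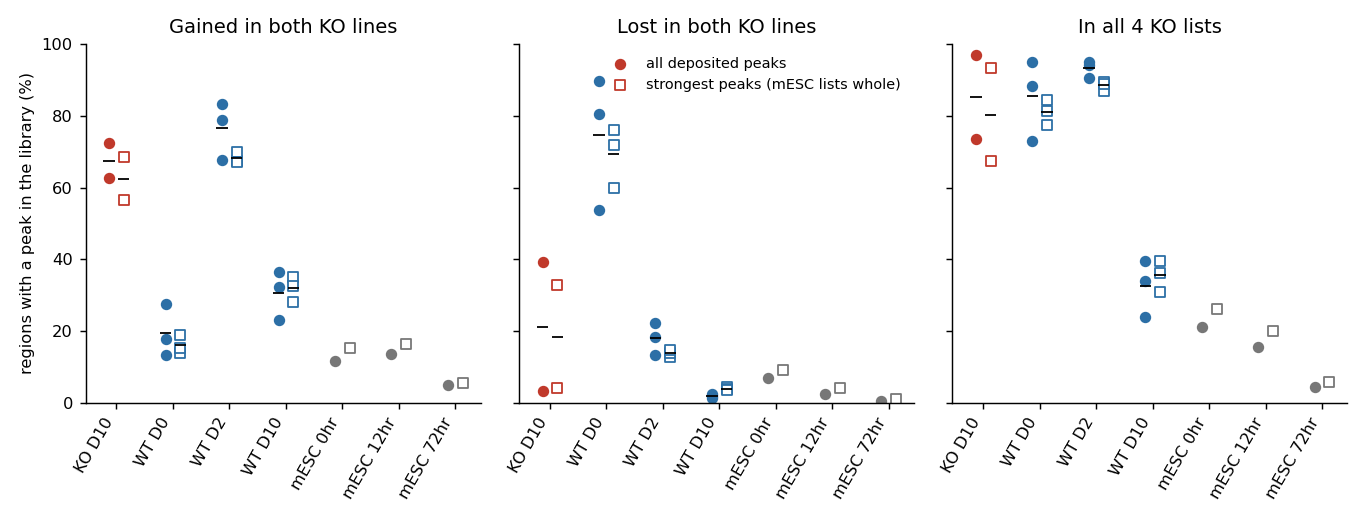
Share of regions (%, vertical axis) with a peak in each library that did not choose them, for regions gained in both KO lines, lost in both, and in all 4 KO lists; filled points use all deposited peaks, open squares the strongest peaks, and bars are group means. Gained regions peak in WT D2 (67.7 to 83.3%), lost regions in WT D0 (53.7 to 89.8%), and the 2 KO D10 libraries lie far apart in the lost regions (39.2 and 3.3%).

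KO D10 libraries were then read at the loci that had changed by D2. Peaks were present at D10 in 62.7% of the gained regions in KO1 and 72.3% in KO2, against 23.1 to 36.4% in the 3 WT D10 libraries. Over all 214482 regions the shares were 45.3% in KO1 D10, 39.6% in KO2 D10 and 12.6 to 20.6% in WT D10. KO D10 lists thus stood above WT D10 lists over all regions too. These regions were merged from KO lists alone, and the KO D10 lists were longer. They held 111808 (KO1) and 111075 (KO2) peaks, against 54997 to 86096 in WT D10. With the strongest peaks, gained regions had a D10 peak in 56.5% (KO1) and 68.5% (KO2), against 28.2 to 35.1% in WT. Over all regions of that setting the shares were 37.2% and 29.6%, against 13.8 to 16.3% in WT D10. With all deposited peaks, both lines had a D10 peak in 13345 gained regions (46.3%), KO1 alone in 4731, KO2 alone in 7516, and neither in 3245 (11.3%). The lost regions separated the lines. KO1 D10 had a peak in 39.2% of them, while KO2 D10 had one in 3.27% and the WT D10 libraries in 1.44 to 2.40%. Set against the shares over all regions, KO1 D10 was somewhat below its own 45.3%, and KO2 D10 was far below its 39.6%. In 3161 lost regions KO1 alone had a D10 peak, in 135 KO2 alone, in 140 both, and in 4982 (59.2%) neither. With the strongest peaks the shares at lost regions were 32.7% in KO1 and 4.1% in KO2, against 37.2% and 29.6% over all regions. Lists as a whole showed the same split, since D0 and D10 shared 31.3% of covered bp in KO1 and 10.2% in KO2. KO2 D0 shared more with KO1 D10 (21.6%) than with KO2 D10. With 1 library per line at D10, this difference between lines has no replicate check.

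The change was tested in windows of 10 kb, each with the bp that the strongest peaks of a library cover in it, after scaling libraries to the same total, on a scale of log2(covered bp + 200). Of the 15731 windows that reached a mean of 500 covered bp over the 15 pre-iPSC libraries, limma called 375 higher at D2 than at D0 (2.38% of those tested) and 88 lower (0.559%), with the line as a block and an adjusted p threshold of 0.05. All 375 rises were higher, and all 88 falls lower, at D2 in KO1 and in KO2 alike. Over all tested windows, 36.1% were higher and 25.1% lower in both lines. The call used these same libraries, so the agreement of the lines is not separate support. In 371 of the 375 rises and in all 88 falls the D0 and D2 values did not overlap, which 26.4% and 17.0% of all tested windows also showed, for D2 higher and D2 lower. The median change over all tested windows was 0.16, and it was 2.57 over the rises (1.46 to 4.42) and -2.71 over the falls (-3.89 to -1.82). Among the called windows the median covered bp, which the call itself used, went from 0 to 1619 in KO1 and from 0 to 1399 in KO2 for rises, and from 1496.5 and 1437.5 to 0 in both lines for falls.

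How many windows were called rested on the libraries and the scale. No window was called when KO1 D2 or KO2 D0 was left out (limma, 1475 higher and 820 lower at an unadjusted p threshold of 0.05 without KO1 D2, 1460 and 557 without KO2 D0), and without KO2 D2 there were 134 rises and 58 falls. The 4 KO libraries alone gave no call either (limma, 1568 higher and 725 lower unadjusted), and without the block there were 237 and 50. Centring each library on its median window gave 240 rises and 125 falls. All deposited peaks without scaling gave 2566 and 50 of 27590 windows tested, with a median change of 0.65. Testing all 102240 windows with any covered bp gave 363 and 725, so the balance between rises and falls changed with the scale and the filter.

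**Figure D3:**
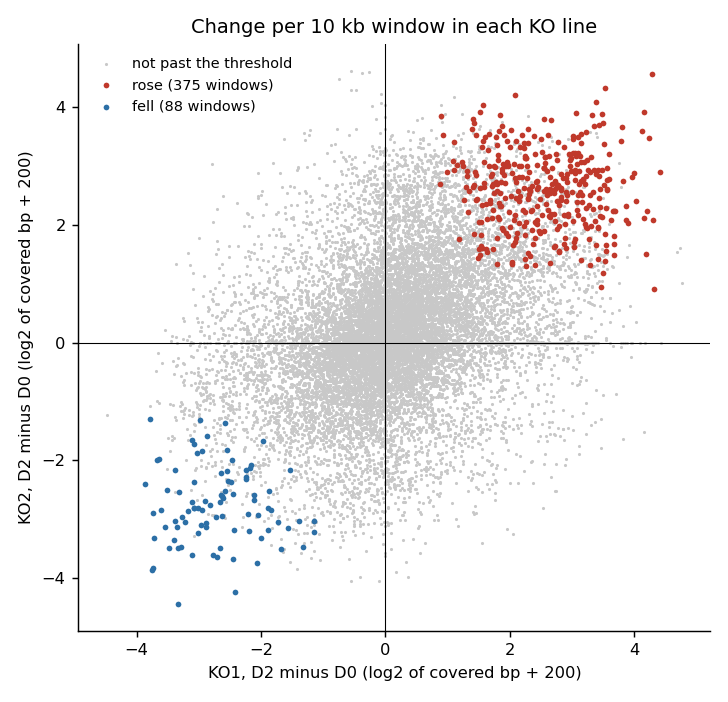
Change from D0 to D2 in each of 15731 windows of 10 kb, in KO1 (horizontal axis) and KO2 (vertical axis), both as log2 of covered bp + 200 under the strongest peaks. The 375 windows called higher (red) lie where both lines are above 0 and the 88 called lower (blue) where both are below 0, while many uncalled windows (grey) moved in 1 line.

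The 10 largest rises were windows without any strong peak at D0 in either KO line, so their fitted changes depend on the pseudocount and are not bounds on a fold. At chr18:56870001-56880000 covered bp went from 0 and 0 to 3684 (KO1) and 4497 (KO2), and were 4511 and 3056 at D10. The fitted change was 4.42 (SE 0.83, limma adjusted p = 0.0173). This window holds the gained region chr18:56876519-56878973. It had no deposited D0 peak of any strength in the KO lines, whereas deposited peaks covered 1947 and 3224 bp at D0 in WT A and B. At chr6:82700001-82710000 covered bp went from 0 and 0 to 3359 and 2814 (log2 change 4.03, SE 0.62, limma adjusted p = 0.00995). In WT the same window went from 0 in all 3 libraries to 1406, 393 and 616 bp, so every D2 library of either arm lay above every D0 library by the strongest peaks. Deposited D0 peaks of any strength covered 1455 bp there in WT B.

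At chr18:73850001-73860000, which holds most of the longest gained region and so shows that locus again, KO1 and KO2 went from 0 and 0 to 3275 and 2201 bp, and at D10 were at 1790 and 3288 bp. WT libraries were at 0 to 530 bp at D0 and at 3600 to 3717 bp at D2. Both KO D2 values lay below all 3 WT D2 values, while the log2 changes were 3.85 in KO and 3.65 in WT. At chr11:109230001-109240000 the KO lines rose to 3569 and 2013 bp and WT from 0 to between 1281 and 2001 bp, while weaker deposited D0 peaks covered 282 bp in WT B. Lines were least alike at chr9:63590001-63600000, with 4044 bp in KO1 and 1280 bp in KO2 at D2, where the adjusted p of limma was 0.0497. Over the 10 windows D2 values ran from 1280 to 4497 bp, and none of the 20 KO D10 values except that of KO1 at chr6:82700001-82710000 (484 bp), chr1:34080001-34090000 (716 bp) and chr9:63590001-63600000 (509 bp) was below 1000 bp. Weak D0 peaks were present in 8 of the 10 windows when all deposited peaks were counted, of 287 to 745 bp.

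The 10 largest falls had no strong peak at D2 in either line. At chr11:101820001-101830000 covered bp were 1814 (KO1) and 4144 (KO2) at D0 and 0 and 0 at D2 (log2 change -3.89, SE 0.94, limma adjusted p = 0.0410). KO1 was back at 1709 bp at D10 and KO2 remained at 0. At chr16:44530001-44540000 the lines had 2482 and 2717 bp at D0, and WT 1977, 1634 and 1306 bp, and all 5 D2 libraries of the arms were at 0 (log2 change -3.81, limma adjusted p = 0.0129). At chr13:55960001-55970000 the KO lines went from 2453 and 2646 bp under the strongest peaks to 0 (log2 change -3.78, limma adjusted p = 0.00995). They stayed at 0 by that measure at D10, where weaker deposited peaks still covered 917 bp in KO1 and 257 bp in KO2. At chr10:79670001-79680000 they went from 1822 and 2037 bp to 0, and WT from 746 to 1392 bp to between 339 and 401 bp, a smaller step that did not pass the threshold (limma adjusted p = 0.0730).

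A fall in strong peaks was seldom a full loss of peaks. In all 10 of these windows at least 1 KO D2 list still held a weaker deposited peak, as at chr16:44530001-44540000 with 1191 bp in KO1 and 1249 bp in KO2. There the WT D2 libraries held 697 to 1299 bp. At chr7:152420001-152430000, also among the 10, deposited peaks covered 2181 bp at D0 and 2249 bp at D2 in KO1. In KO2 they went from 1970 to 577 bp there. Of all 88 falls, 2 had no deposited D2 peak in either line, and of all 375 rises, 85 had no deposited D0 peak in either line. The D2 lists were longer than the D0 lists, and no share over all tested windows is set beside these counts, so falls and rises are not compared by them. At D10 the median over the 88 falls was 552 bp in KO1 and 2 bp in KO2, with WT medians of 0 bp in all 3 libraries; over all tested windows the D10 medians were 901 bp (KO1), 799 bp (KO2) and 447 to 515 bp (WT). Over the 375 rises it was 1135 bp in KO1 and 1458 bp in KO2, and 913 to 1044 bp in WT. At windows that fell, KO1 D10 thus stood between its D2 value and the median of all windows, and KO2 D10 near 0, without a test.

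**Figure D4:**
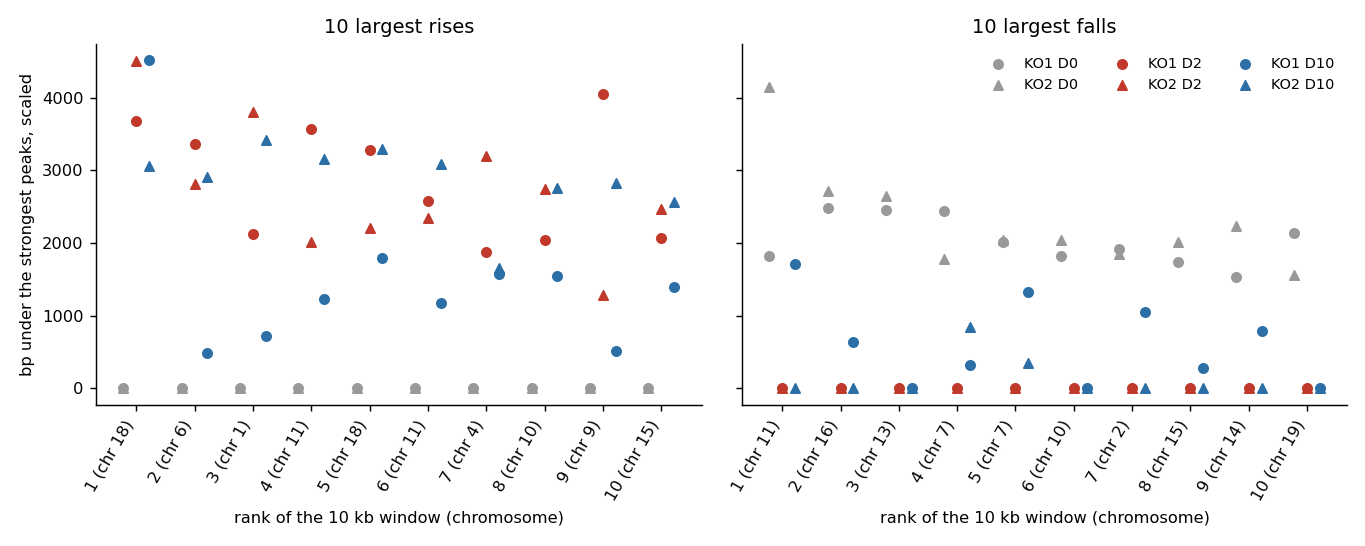
Covered bp under the strongest peaks (scaled, vertical axis) in the 10 largest rises and the 10 largest falls among windows, by rank, for KO1 (circles) and KO2 (triangles) at D0 (grey), D2 (red) and D10 (blue). D0 is at 0 in every rise and D2 is at 0 in every fall; among the falls the points of D10 above 0 are mostly KO1.

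The same contrast in WT set these windows beside a group of other libraries. KO and WT contrasts came from a single fit, however, and share the residual variance of each window. A window with a small variance is more easily called in both arms, so the overlap of the calls is not independent support. How much of the overlap comes from this was not tested. WT D2 minus D0 gave 2082 rises (13.2% of 15731) and 417 falls (2.65%) in the same fit. Of the 375 KO rises, 255 (68.0%) were also called higher in WT, which is 12.2% of the WT list, and 1 was called lower. Of the 88 KO falls, 41 (46.6%) were also called lower in WT, 9.83% of that list, and none was called higher. WT had 3 libraries per day against 2, so the lengths of the lists are not a comparison of the arms. The difference between arms was tested as an interaction: limma called 0 windows past the adjusted threshold, with a smallest adjusted p of 0.0725, and 382 windows higher and 788 lower in KO than WT at an unadjusted p threshold of 0.05. Nothing in the D0 to D2 change is therefore called particular to the KO arm. A pseudocount of 50 gave 4 windows higher and 7 lower, and windows of 50 kb gave 0 and 1.

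The window with that smallest p, singled out after its values were seen, shows what such a difference would look like. At chr4:148300001-148310000 covered bp were 1451 (KO1) and 3211 (KO2) at D0 and 1398 and 3235 at D2. WT went from 0 in all 3 libraries to 1994, 2197 and 1584 bp, by the strongest peaks. Deposited peaks of any strength covered 264, 1198 and 0 bp at D0 in WT A, B and C. At D2 they covered 3517, 2937 and 2197 bp. The fitted WT change thus depends on the cut and the pseudocount. The KO change was -0.02 and the WT change 3.40 on the log2 scale, a difference of -3.42 (SE 0.48, limma adjusted p = 0.0725).

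Most gained regions lay within 5 kb of a D0 peak, and regions of the other classes also lay mostly within 5 kb of the other day's peaks. Distances from random positions were not computed. The median gained region was 2169 bp from the nearest D0 peak of either line, and 70.3% had one within 5 kb. Regions that KO1 D2 or KO2 D2 held alone were somewhat further out, at medians of 3145 and 2789 bp, with 62.4 and 63.4% within 5 kb. Lost regions were 1171 bp from the nearest D2 peak, with 77.3% within 5 kb. With lists of equal length the medians were 2337 bp for gained and 2785 bp for lost regions. Where a peak stayed in all 4 lists, its width changed in KO1 but hardly in KO2. Mean covered length per such region went from 653 to 742 bp in KO1, the line with the deeper D2 library, and from 591 to 590 bp in KO2. The region was wider at D2 in 56.9% of cases in KO1 and in 48.0% in KO2, and in both lines in 34.2%.

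Shares of the strongest peaks per chromosome differed by small amounts between the days. The largest mean increases shared by the lines were those of chromosome 10 (5.11 to 5.50% in KO1, 5.59 to 5.88% in KO2), chromosome 2 (7.77 to 7.78% in KO1, 8.17 to 8.84% in KO2) and chromosome 3 (4.74 to 4.94% in KO1, 5.16 to 5.54% in KO2). The largest shared decreases were those of chromosome 1 (6.08 to 5.55% in KO1, 7.56 to 7.17% in KO2), chromosome 7 (5.86 to 5.37% in KO1, 5.61 to 5.47% in KO2) and chromosome 9 (5.21 to 4.66% in KO1, 5.78 to 5.69% in KO2). These shifts have no test. Chromosome 5 moved by more than any of these in KO1 (10.4 to 12.8%) and the other way in KO2 (5.43 to 5.01%). Shares of a library sum to a fixed total, so a larger share on chromosome 5 leaves less for the other chromosomes in KO1. Gains outnumbered losses on every chromosome with all peaks, from 2.74 gained per lost region on chromosome 1 to 4.11 on chromosome 17. With the strongest peaks the ratio ran from 0.68 on chromosome 9 to 1.05 on chromosome 10, which alone exceeded 1. The D2 lists are the longer ones, and equal lists force gains and losses within a line to nearly the same number. The balance is therefore not read by chromosome either. The last 10% of each chromosome's extent held 16.3% of the strongest peaks in KO1 D0, 17.5% in KO1 D2, 16.1% in KO2 D0 and 17.1% in KO2 D2. It held 16.8% of the gained, 13.6% of the lost and 18.6% of the regions in all 4 lists.

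**Figure D5:**
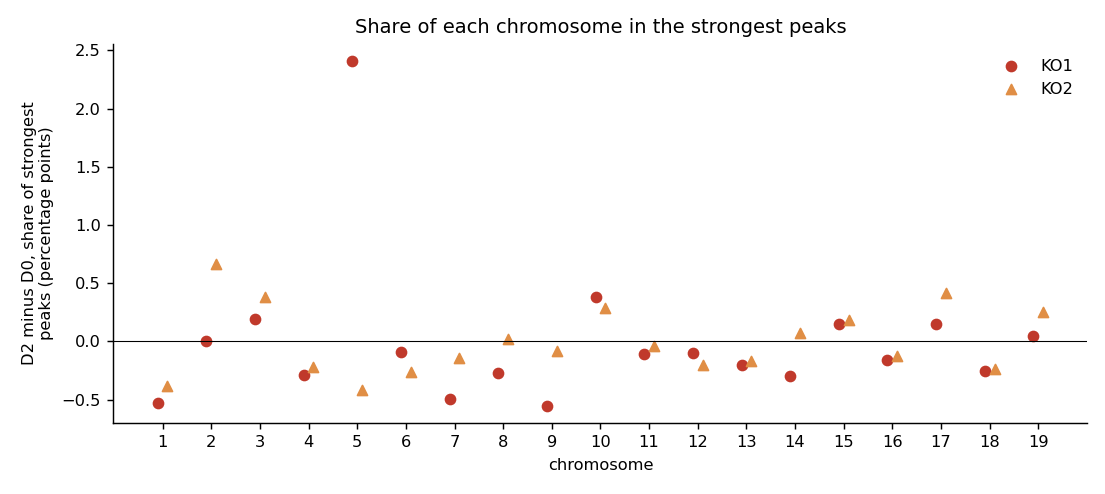
Difference between D2 and D0 in the share of the strongest peaks on each chromosome (percentage points, vertical axis), in KO1 (circles) and KO2 (triangles). Except on chromosome 5, where KO1 rises from 10.4 to 12.8% and KO2 drops from 5.43 to 5.01%, the points lie between -0.55 and 0.66.

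Peaks of the KO lines were last read against mESC, the pluripotent cells of the series. A set of 12863 mESC regions with a peak in at least 2 of the 3 mESC lists was used. Of the strongest KO peaks, 3.63% (95% Wilson interval 3.48 to 3.79%) lay in this set in KO1 D0 and 3.42% (3.27 to 3.58%) in KO2 D0. At D2 the shares were 6.15% (5.96 to 6.36%) in KO1 and 5.75% (5.56 to 5.95%) in KO2. Both D2 libraries were above both D0 libraries, by 2.43 points on average (two-sided exact permutation, 2 against 2, p = 0.333, the smallest possible), and by 1.25 points with all deposited peaks. WT libraries stood at 3.42 to 3.74% at D0 and 6.21 to 6.50% at D2, and at 10.9 to 11.4% at D10, where the KO lines were at 4.99 and 6.99%. Of the single mESC lists, that of 12 hours gave the widest step in KO, from 7.69 to 13.3% in KO1 and from 7.59 to 12.2% in KO2. That of 0 hours gave 12.9 to 15.7% and 10.2 to 12.5%, so KO1 D0 lay above KO2 D2 (two-sided exact permutation, 2 against 2, p = 0.667). With all deposited peaks the mean difference for that list was -0.24 points, and the lines moved in opposite directions. Among the gained regions themselves, 11.7, 13.6 and 5.11% had a peak in the mESC lists of 0, 12 and 72 hours. The shares over all regions were 8.65, 7.96 and 3.15%, and those of regions in all 4 KO lists were 21.2, 15.7 and 4.54%. Gained regions thus lay above all regions in the 3 lists, and below the regions in all 4 KO lists at 0 and 12 hours. Among the lost regions 6.79, 2.52 and 0.475% had an mESC peak.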

How the data were processed

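5hmC-enriched genomic DNA was sequenced, and the authors called peaks in each library with Bowtie, SAMtools and MACS2 on mm9, per the submitters' processing notes (versions: not given in the sources here). Each deposited list has 10 columns with the authors' score, the fold enrichment at the summit as a linear ratio, and the -log10 p and -log10 q, as in MACS2 narrowPeak output, per the deposited files. Run names carry a p threshold of 0.0001. The mESC lists were used as deposited, although a label says that no peaks were called for them. Peaks off chromosomes 1 to 19 (1327 in the 4 KO lists) were left out, and the authors' values were used to order or select peaks of the same list and to recover relative depth. Absolute depth is unknown, which limits how firmly peak numbers can be compared.

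Samples were grouped by title. Merged regions, shares and exact permutation tests were computed in Python 3.11.15 (pandas 2.3.3, scipy 1.17.1). Windows of 10 kb were tested with limma 3.58.1 in R 4.3.3 (lmFit, eBayes with trend and robust) on all 15 pre-iPSC libraries in 6 groups with a term for the KO line, a pseudocount of 200 covered bp and Benjamini-Hochberg adjustment over all windows of a contrast; the scripts were tested on simulated data. KO1 and KO2 pair samples through the titles, which number the lines; what sets the lines apart within a day correlated across days by 0.34 (D0 and D2), 0.26 (D0 and D10) and 0.23 (D2 and D10) over windows, and by 0.29, 0.22 and 0.17 without chromosome 5. Windows named are the 10 largest rises and falls past the threshold with D0 and D2 values that do not overlap; named regions comprise the 10 longest gained, the 10 longest lost and, from the 5 longest of each opposite pattern, the first; chromosomes named are the 3 with the largest shared rise and fall. The members, lists and rules were chosen with earlier results of these data known. Gene lists and cell type markers needed an annotation of mm9 and were not run, since the only gene table is on GRCm38 and 10 chromosomes have a peak past its last gene; for the same reason no sequence is printed. Alternatives covered the peaks used, the q threshold, overlap, merging, scaling, pseudocount, filter, window size, line block and each library left out.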

Additional observations from a re-analysis of the deposited data

How the results depend on the processing

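Gained regions numbered 28837 with all peaks, 8912 with the strongest peaks and 8393 with the strongest peaks without chromosome 5, and 35279 to 82776 when 1 library was left out; the other 4 settings gave 21840 to 28837. Lost regions numbered 8418, and 11428 to 31149 with 1 library left out; the other 6 settings gave 5672 to 10542. The 200 bp overlap left both counts as they were, since no peak is shorter than 221 bp. Leaving out a library drops a condition from the rule, so these counts can only grow.

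Settings that tested another number of windows give counts on another base. All deposited peaks gave 1105 windows higher and 254 lower of 27712 when scaled, and 2566 and 50 of 27590 unscaled. A minimum mean of 2000 covered bp gave 34 and 0 (limma, 88 and 3 unadjusted, 460 windows tested). Every window with a covered bp gave 363 and 725 of 102240. Windows of 50 kb, with a larger pseudocount and a larger minimum mean, gave 190 and 31 of 2466. Among the 15731 windows of the main setting, those called higher and lower at D2 (375 and 88 with limma) were 237 and 50 with no replicate block for the line. They were 0 and 0 with the 4 KO libraries alone, 240 and 125 when centred, and 584 and 205 with a pseudocount of 1000. With 1 library left out they ranged from 0 to 317 and from 0 to 91, where a lone library was assumed to vary like the other groups. A pseudocount of 50 gave 344 and 72. Leaving out chromosome 5, an alternative chosen after seeing the data, gave 420 and 107 of 14491 windows tested. The interaction gave 0 windows with and without the replicate block, and the block had no bearing on results without a model.

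Regions gained in KO1 had a KO2 D2 peak in 42.5% with all peaks, 37.7% with the strongest and 38.6% at a -log10 q of at least 5; those gained in KO2 had a KO1 D2 peak in 57.2%, 42.7% and 57.0%. The WT differences kept their direction under all 7 alternatives each, from 52.1 to 61.5 points at gained and from -67.2 to -49.1 points at lost regions, and the difference in the mESC share was 1.25 to 5.15 points under 4, but -0.24 points (-1.51 in KO1, 1.02 in KO2) with all deposited peaks against the 0 hour list. The cause of each of these shifts was not tested. Having 2 libraries a group and unknown absolute depth limits every count.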

Other observations

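Some bins of 100 kb held many gained regions, and those named here were singled out after their values were seen. Whether gained or lost loci gather more than peaks in general was not tested. The 100 kb bin with the most regions gained in both KO lines was chr13:114600001-114700000, with 28 gained and 0 lost. It held 7 peaks in KO1 D0, 14 in KO2 D0, 53 in KO1 D2 and 59 in KO2 D2, and 34 and 52 at D10, while WT libraries held 8 to 24 at D0 and 55 to 59 at D2. The longest run of adjoining windows called higher, 4 windows at chr13:114630001-114670000, lies inside it. Of the 375 rises, 36 had a called neighbour, and of the 88 falls, 2, with no share over all tested windows to set beside them. At chr6:114500001-114600000, with 20 gained regions, KO2 D0 held 1 peak, KO1 D0 held 12, and the WT D0 libraries held 0, 2 and 1. At D2 there were 55 and 36 peaks in KO1 and KO2 and 50 to 76 in WT. By D10 the lines had parted, with 57 peaks in KO1 and 15 in KO2, and 2 to 13 in WT.

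The most losses in a 100 kb bin were 8, at chr4:139300001-139400000, where KO peaks went from 26 to 10 in KO1 and from 31 to 23 in KO2. WT did not follow as a group, with 18, 23 and 12 peaks in A, B and C at D0 and 28, 17 and 17 at D2. This bin holds the only adjoining pair of windows called lower, chr4:139340001-139360000. At chr15:73600001-73700000, with 7 regions lost and 0 gained, the lines went from 16 to 3 and from 24 to 10 peaks, and WT from between 13 and 22 to between 9 and 12. With all deposited peaks, 4134 of the 9420 bins with a gained region had at least 3, and 555 of the 5800 bins with a lost region. Gained regions were also more numerous than lost regions (28837 and 8418), so these counts are not compared.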
